A study of Mus musculus with 4 samples.

Results

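Nonclassical monocytes were identified in dissociated mouse lung as barcodes with 200 to 7500 detected genes and at most 10% of their UMIs (unique molecular identifiers, each counting 1 captured RNA molecule) from mitochondrial genes, a UMI of at least 2 of the 3 genes *Adgre4*, *Cd300e* and *Treml4*, a UMI of *Csf1r*, no UMI of *Cdh5* or *Col1a2*, fewer than 10 UMIs of *C1qa*, *C1qb* and *C1qc* together, and fewer than 4 of 8 alveolar macrophage genes (*Marco*, *Chil3*, *Krt79*, *Plet1*, *Fabp1*, *Ear1*, *Siglecf* and *Cidec*). The rule held for 990 of the 11846 barcodes within the limits, of which 166 came from nonventilated and 204 from ventilated young mice, and 374 from nonventilated and 246 from ventilated aged mice. Because expression values of these cells chose them, the levels of the genes in the rule are described here and support nothing.

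Lung cells of male wild-type C57BL/6 mice were profiled by droplet-based scRNA-Seq to examine how age and mechanical ventilation affect single cell types. Young mice were 2 to 3 months old and aged mice 22 months old, and each age had a nonventilated and a ventilated group. The paper describes a food-restricted diet in its account of the aged mice. The deposited description gives young mice the same conditions and then a restricted diet without naming an age. Ventilated mice received a high tidal volume for 3 hours together with anesthesia, analgesia, vascular lines and pure oxygen, whereas nonventilated mice were naive, so that the effect of ventilation cannot be told apart from those of the other procedures. The lung vessels were flushed before digestion, the cells were frozen, and each group was 1 library made from 3 pooled mice, so that no comparison of 2 groups had replicates, no test was made, and an interval in parentheses is a 95% interval for counting error only.

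Nonclassical monocytes are blood monocytes that crawl along the wall of small vessels and survey the endothelium. They arise from classical, Ly6C-high monocytes, depend on the nuclear receptor NR4A1 and on CSF1R signaling, and carry the fractalkine receptor CX3CR1, the integrin LFA-1 and the Fc receptor FcγRIV. In the lung they are found in the capillary bed and at its margins, where they take up particles and cell debris and can release chemokines.

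Of 10 markers of nonclassical monocytes that the rule did not use, all had a UMI in at least 20% of the cells of each library. *Itgal*, the alpha chain of LFA-1, was detected in 96.6% to 100% of the cells of a library, and *Nr4a1* in 93.1% to 100%. Levels are given below as CPM, the UMIs of a gene per 1000000 UMIs summed over the nonclassical monocytes of a library, and 4 values in a row are for young mice without and with ventilation and then for aged mice without and with it. *Itgal* was at 1025, 852, 1162 and 869 CPM, and 28.6%, 33.3%, 39.6% and 45.9% of B cells of the same libraries had a UMI of it. *Cx3cr1* was at 279, 199, 342 and 176 CPM. Against all other barcodes within the limits, 9 of the 10 markers were higher in nonclassical monocytes of each library. The exception was *Ace*, which other lung cells also express and which was at 0.539 and 0.515 times the level of the other barcodes in the young and aged ventilated libraries. *Cx3cr1* was also found in interstitial macrophages (314, 95.7, 314 and 150 CPM). *Nr4a1* was at 1070, 604, 1144 and 685 CPM in nonclassical monocytes and at 429, 327, 435 and 272 CPM in the other barcodes. Its detection alone therefore does not set these cells apart.

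The 4 groups of cells held 1868440, 2039206, 3941132 and 3146433 UMIs, with medians of 10144, 8552, 8336 and 11444 UMIs and 3192, 2808, 2902 and 3176 genes per cell. All 3 of *Adgre4*, *Cd300e* and *Treml4* were detected in 110, 146, 268 and 162 cells, and exactly 2 of them in 56, 58, 106 and 84 cells. Just outside the rule, 53, 106, 63 and 98 barcodes had 1 of the 3 genes, 4, 4, 3 and 8 had 10 or more C1q UMIs, 4, 1, 10 and 0 had 4 or more alveolar macrophage genes, and 17, 24, 55 and 14 had a UMI of *Cdh5* or *Col1a2*. Just inside it, 4, 8, 8 and 15 cells had 1 to 9 C1q UMIs. Pairs of libraries shared 23 barcodes in all, of which 1 was a nonclassical monocyte in both the young nonventilated and the young ventilated library.

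Markers of other cell types were present at different levels in the libraries. Neutrophil markers summed to 519, 1450, 302 and 3182 CPM, led by *S100a9* (207 CPM) in young nonventilated, *S100a8* in both ventilated libraries (584 and 1440 CPM) and *Csf3r* (127 CPM) in aged nonventilated cells. At least 2 of these 8 markers had a UMI in 10.8%, 32.8%, 9.09% and 52.9% of the cells. The defining gene *Ly6g* was at 0 in the first 3 libraries and *Camp* in all but the young ventilated one. Classical monocyte markers summed to 1172, 3313, 682 and 3470 CPM, led by *Fn1* (266 CPM) in young nonventilated cells and *Hp* elsewhere (2129, 334 and 2067 CPM). Interstitial macrophage markers summed to 120, 331, 44.2 and 380 CPM, nearly all of it *F13a1*, which classical monocytes also express. Alveolar macrophage markers summed to 169, 71.1, 98.7 and 207 CPM and endothelial markers, with *Cdh5* at 0 by the rule, to 91.0, 73.1, 74.9 and 69.3 CPM. Dendritic, mesenchymal, erythroid, platelet, basophil and dividing cell markers each summed to less than 50 CPM in every library. B cell markers summed to 89.9, 37.8, 69.3 and 25.4 CPM, led by *Ighm*, T or NK cell markers to at most 23.9 CPM, and epithelial markers, led by *Scgb1a1*, to 127, 221, 227 and 209 CPM. No doublet caller was run. Instead, 58, 104, 157 and 160 cells were set aside for UMIs of 2 or more markers of another type. Those types were neutrophils and B, T or NK, endothelial, mesenchymal and epithelial cells, and classical monocyte markers were not used. The shares of nonclassical monocytes, the counts of genes past 2-fold, the list medians and the summed levels of named and pathway genes were recomputed on the remaining 108, 100, 217 and 86 cells. Single markers of the filter were widespread. *Scgb1a1* had a UMI in 56.0%, 79.4%, 68.2% and 60.6% of nonclassical monocytes, and *Csf3r* in 57.2% of aged nonventilated ones. The cells set aside are therefore not shown to be doublets or other cell types.

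Nonclassical monocytes made up 5.64% (4.84 to 6.54) of the barcodes within the limits in young nonventilated lung, 6.13% (5.34 to 7.0) in young ventilated lung, 12.4% (11.2 to 13.6) in aged nonventilated lung and 9.64% (8.52 to 10.9) in aged ventilated lung. The aged share was therefore 2.19 times the young share without ventilation (1.82 to 2.65) and 1.57 times after it (1.30 to 1.90). The ventilated share was 1.09 times the nonventilated share in young lungs (0.881 to 1.34), an interval that includes no difference, and 0.780 times that in aged lungs (0.661 to 0.918). When 1 defining gene sufficed, the ratio was 1.252 in young (1.05 to 1.50) and 0.933 in aged lungs (0.808 to 1.08), so that the interval that included no difference was then the aged one. Without cells carrying markers of another type the ventilated share was 0.819 times the nonventilated share in young (0.618 to 1.08) and 0.470 times in aged lungs (0.362 to 0.606). The aged share was then 1.95 times the young share without ventilation (1.54 to 2.48) and 1.12 times after it (0.831 to 1.51). This filter removed ventilated cells more often (104 of 204 young, 160 of 246 aged) than nonventilated ones (58 of 166 and 157 of 374). These ratios partly follow from that. Classical monocytes, chosen in the same libraries by *Ly6c2*, *Ccr2* and at least 1 of *F13a1*, *Vcan* and *Fn1* with at most 1 of the 3 defining genes, were 1.90%, 2.37%, 1.36% and 3.02% of the barcodes, so that their share was lowest where that of nonclassical monocytes was highest. Interstitial macrophages, chosen by *Csf1r* and at least 10 C1q UMIs, were 1.84%, 1.35%, 1.65% and 2.78%. The shares are of cells that survived digestion and freezing, and mouse-to-mouse spread could not be measured.

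**Figure D1:**
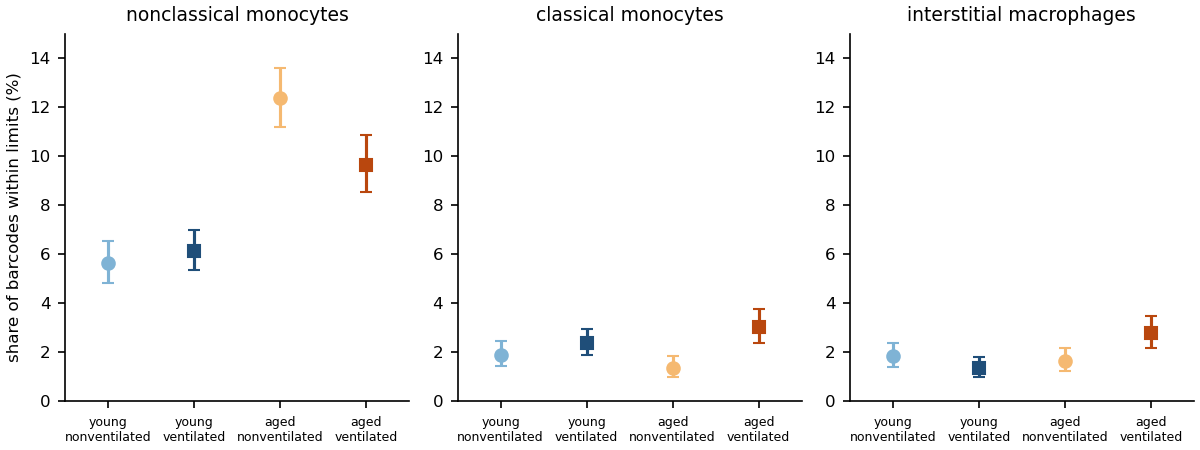
Share of barcodes within the limits (percent, vertical axis) that were nonclassical monocytes, classical monocytes or interstitial macrophages in each of the 4 libraries, with exact 95% intervals for counting error. The nonclassical share was 12.4% and 9.64% in the aged libraries and 5.64% and 6.13% in the young ones.

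To describe the response to ventilation, the UMIs of each gene were summed over the nonclassical monocytes of a library, and a gene was called higher or lower at a 2-fold difference if its 2 levels averaged 50 CPM or more. In young mice 317 of 3592 genes (8.83%) were higher and 349 (9.72%) were lower after ventilation. In aged mice 227 of 3538 genes (6.42%) were higher and 331 (9.36%) lower, so that lower genes outnumbered higher ones at both ages. With the median of all genes set to 0 this order turned, to 359 higher and 297 lower genes in young mice and 286 higher and 230 lower genes in aged mice. The median log2 ratio over all genes was -0.09 in young and -0.14 in aged cells, and the ratios of a list of genes are to be read against that shift. Of the 303 genes higher in young mice that could be compared at both ages, 298 were also above 0 on the log2 scale in aged mice and 188 passed 2-fold there (62.1%). Of the 328 lower genes, 318 had the same direction and 219 passed 2-fold (66.8%).

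**Figure D2:**
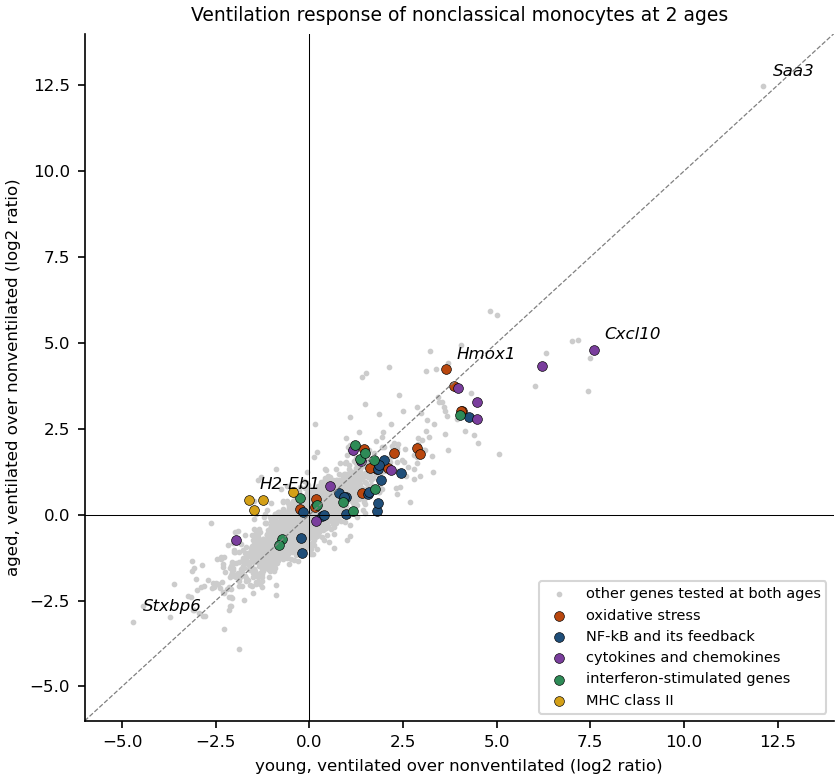
Log2 ratio of ventilated over nonventilated nonclassical monocytes in young (horizontal axis) and aged mice (vertical axis) for each gene measured at both ages, with colored points for 5 gene lists and a dashed line of equal ratios. Most colored points of oxidative stress, NF-kB and cytokine genes lie to the right of and above 0 at both ages, whereas *H2-Eb1* is at -1.60 in young and 0.43 in aged cells.

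Genes for iron storage and antioxidant defense were higher after ventilation at both ages. *Fth1* (chromosome 19, 9980598 to 9985098, plus strand, GRCm38), which encodes the ferritin heavy chain, was at 2153, 36255, 3627 and 29433 CPM, or 16.8-fold higher in young (16.3 to 17.4) and 8.12-fold higher in aged mice (7.97 to 8.26). *Ftl1*, the ferritin light chain, was at 3106, 10784, 3088 and 7764 CPM. Both ferritin genes have many processed pseudogenes, and their counts hold only reads that the alignment could place. With each cell thinned to 2000 UMIs, the median *Fth1* count was 4, 65, 5 and 52 UMIs, and 84.7% of young ventilated cells lay above the highest young nonventilated cell (29 UMIs). In aged mice the highest nonventilated cell had 73 UMIs and 30.2% of ventilated cells exceeded it. Of the ventilated cells, 94.1% in young and 95.9% in aged mice lay above the median of the nonventilated cells of their age, so that the difference was not limited to a few cells.

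**Figure D3:**
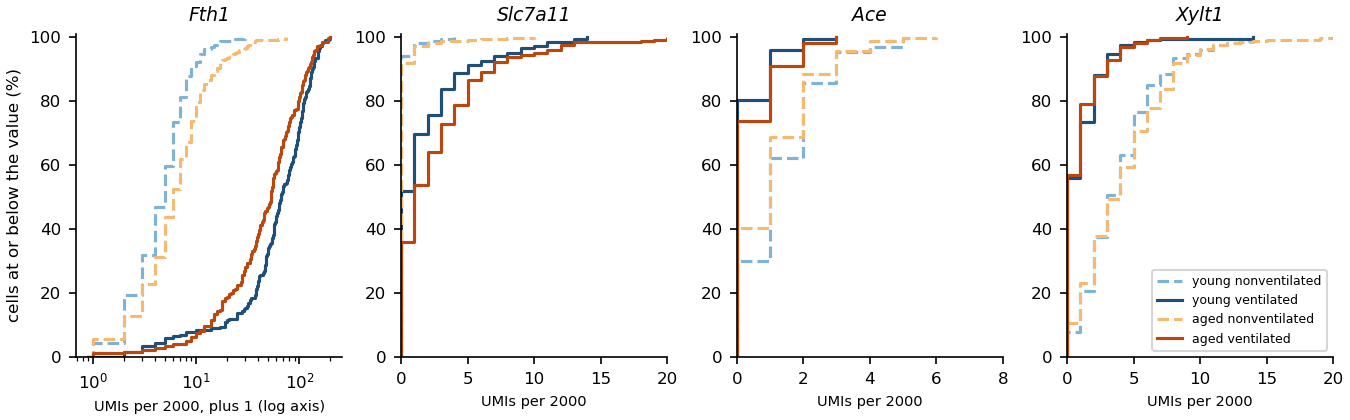
Cumulative share of nonclassical monocytes (percent, vertical axis) at or below a count of UMIs per 2000 (horizontal axis, log scale with 1 added for *Fth1*) for *Fth1*, *Slc7a11*, *Ace* and *Xylt1* in the 4 libraries. The ventilated curves lie to the right for *Fth1* (medians 65 and 52 against 4 and 5 UMIs) and to the left for *Xylt1* (medians 0 and 0 against 3 and 4 UMIs).

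Of the 17 genes listed for oxidative stress, 14 were measured between the nonventilated libraries and 15 in each ventilation comparison. *Gclm* reached the limit of 50 CPM only through the ventilated library, where it had to be higher. As a description, 12 of 15 measured were at least 2-fold higher in young ventilated cells and 11 of 15 in aged ventilated cells, none was 2-fold lower, and the median log2 ratios were 2.11 and 1.76. Over all genes 8.83% and 6.42% were higher, and 9.72% and 9.36% lower, in young and aged mice. *Hmox1*, which degrades heme, was at 111, 1392, 83.0 and 1567 CPM. *Slc7a11*, the cystine transporter that feeds glutathione synthesis, was at 54.1, 792, 96.7 and 1305 CPM, or 14.6-fold higher in young (12 to 18.1) and 13.5-fold higher in aged mice (12.2 to 15). At 2000 UMIs per cell *Slc7a11* was detected in 6.02%, 48.0%, 8.09% and 64.1% of nonclassical monocytes (15.7%, 77.0%, 23.3% and 86.2% unthinned), against 0%, 0%, 0% and 1.18% of B cells, whose median depth was 7205, 9214, 9391 and 11336 UMIs. *Gclm*, a subunit of the enzyme that makes the glutathione precursor, was at 9.10, 158, 18.8 and 155 CPM, and the peroxidase gene *Prdx1* at 279, 2143, 372 and 1264 CPM. *Txnrd1* (88.8, 429, 157 and 544 CPM) and *Blvrb* (47.6, 353, 57.6 and 221 CPM) followed the same pattern. By contrast, *Gsr*, *Prdx6* and *G6pdx* stayed within 1.5-fold at both ages, with log2 ratios from -0.24 to 0.45.

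Many antioxidant genes carry the antioxidant response element, to which NRF2 binds. The letters TGACNNNGC, on either strand, were in the RefSeq promoters (GRCm38.p6, 250 bases before to 50 after the start) of 4 of the 13 listed genes with a promoter entry (30.8%: *Srxn1*, *Gclm*, *Prdx1* and *G6pdx*), against 12.5% of all 27025 promoters, and *G6pdx* was not among the genes that differed. *Fth1*, *Hmox1*, *Slc7a11* and *Txnrd1*, which were higher in both ventilated libraries, are not among the 4 genes with a match. The windows of *Gclm* (chr3:122245398-122245456, plus strand) and *Prdx1* (chr4:116685441-116685499, plus strand) are shown. Of the genes chosen for display, only they had a match in the 250 bases before the start. Capitals mark the match, read on the opposite strand, and in *Prdx1* it overlaps an AP-1 motif (TGACTCA on that strand).
Gclm: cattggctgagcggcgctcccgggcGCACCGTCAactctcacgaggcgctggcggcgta
Prdx1: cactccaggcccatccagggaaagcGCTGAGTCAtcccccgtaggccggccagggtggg

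Several genes that were near 0 in nonventilated cells were above 100 CPM after ventilation. *Spic* (chromosome 10, 88674772 to 88685015, minus strand), a transcription factor known from heme-handling macrophages of the spleen, was at 2.68, 574, 24.6 and 593 CPM, which was 215-fold higher in young mice (91.7 to 662) and 24.1-fold in aged mice (19.6 to 29.9). It was detected in 0%, 52.5%, 4.04% and 53.5% of cells thinned to 2000 UMIs (3.01%, 82.4%, 12% and 80.5% unthinned) but in at most 1.18% of thinned B cells. *Acod1* (chromosome 14, 103046977 to 103056573, plus strand), which makes the immunometabolite itaconate, was at 1.07, 280, 36.0 and 442 CPM, and *Mmp14*, a membrane-bound collagenase, at 1.61, 275, 10.9 and 374 CPM. For *Spic*, *Acod1* and *Mmp14* the aged nonventilated level lay above the young one while the ventilated levels of the ages were closer to each other. *Cd38*, an NAD-consuming ectoenzyme, was at 4.28, 137, 4.31 and 280 CPM, and the syndecan gene *Sdc4* at 1.61, 172, 11.4 and 302 CPM.

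*Saa3* (chromosome 7, 46711998 to 46715700, minus strand), an acute-phase apolipoprotein, had no UMI in young nonventilated and 2 UMIs in aged nonventilated cells but was at 2358 and 4341 CPM after ventilation, at least 1469-fold higher in young mice against a floor of 3 UMIs, with 1194 as the lower limit of the counting interval. It was unevenly spread, since the 5% of cells with the most *Saa3* held 66.9% of its UMIs in young ventilated and 56.8% in aged ventilated lung. After thinning it was found in 20.3% and 27.8% of ventilated nonclassical monocytes, in 67.1% and 63.6% of ventilated classical monocytes and in 0% and 2.35% of B cells. Unthinned, the B cell shares were 12.5% and 14.1%, against 27.9% and 36.6% of nonclassical monocytes, and since B cells should lack the gene, shares at or under that of B cells are background. *Lcn2* (3.75, 138, 3.81 and 228 CPM) and *Spp1* (0.535, 154, 7.11 and 248 CPM) were also high in few cells, with a UMI of *Spp1* in 7.84% and 10.2% of ventilated cells. Without the cells carrying markers of another type, *Saa3* was still at 0, 2243, 0.997 and 2356 CPM and *Lcn2* at 0.870, 46.4, 0 and 210 CPM, whereas *Spp1* was at 0.870, 33.5, 1.50 and 79.6 CPM. With all 3 defining genes required, the aged log2 ratio of *Spp1* was -0.90.

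**Figure D4:**
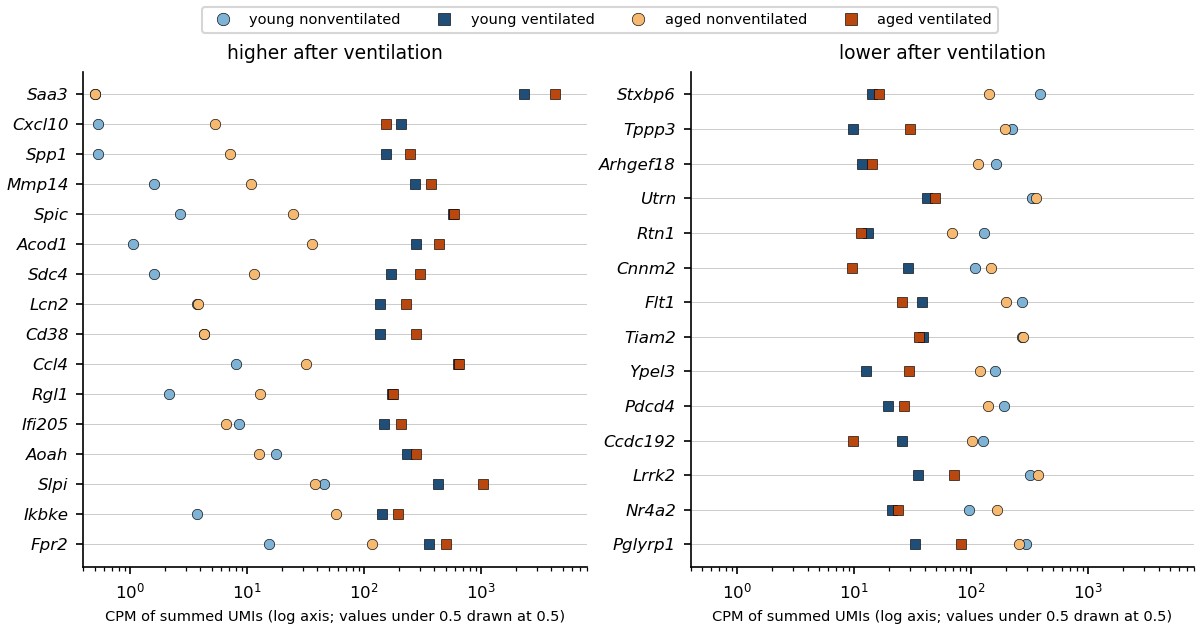
CPM of summed UMIs (log axis, values under 0.5 drawn at 0.5) of the genes with the largest differences after ventilation in nonclassical monocytes of the 4 libraries, circles for nonventilated and squares for ventilated mice. For each gene shown both squares lie on the same side of both circles, and for *Acod1*, *Ikbke* and *Fpr2* the aged nonventilated circle lies above the young one.

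Some genes of the NF-kB pathway and its feedback inhibitors were higher after ventilation, and a difference between the ages was not tested. NF-kB is a family of transcription factors released when inhibitors such as IκBα are degraded. Of the 19 listed genes, all measured, 10 were at least 2-fold higher and none 2-fold lower in young mice (median log2 ratio 1.55), and 6 were higher and 1 lower in aged mice (0.53). The shares over all genes were 8.83% higher and 9.72% lower in young mice, and 6.42% and 9.36% in aged mice. *Sod2*, the mitochondrial superoxide dismutase, was at 85.1, 1643, 250 and 1797 CPM. *Nfkbia*, which encodes IκBα, was at 397, 1484, 712 and 1431 CPM and *Tnip1*, which dampens signaling, at 78.7, 432, 214 and 501 CPM. For these 3 genes the ventilated libraries were close to each other, and the aged nonventilated library lay above the young one. The kinase gene *Ikbke* had the same order, at 3.75, 143, 57.3 and 197 CPM. *Rel*, a subunit of NF-kB, was the gene that was 2-fold lower in aged mice, at 773, 672, 1323 and 614 CPM.

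Cytokine and chemokine transcripts were measured in part. Of the 30 listed, only 6 reached the limit of 50 CPM when the nonventilated libraries were compared with each other, and several of those measured below, such as *Cxcl10*, *Ccl3* and *Il1rn*, reached it only through the ventilated library, where they had to be higher. The counts are therefore a description. In young mice 9 of 12 measured genes were 2-fold higher and 1 lower (median log2 ratio 3.07), and in aged mice 8 of 11 were higher and none lower (1.88). Higher genes made up 8.83% of all genes in young and 6.42% in aged mice, and lower genes 9.72% and 9.36%. *Ccl4*, which attracts lymphocytes and monocytes, was at 8.03, 634, 32.2 and 654 CPM, and its relative *Ccl3* at 11.8, 275, 42.1 and 293 CPM. The neutrophil attractant *Cxcl2* was at 24.6, 562, 136 and 1334 CPM. *Cxcl10*, which attracts T cells, was at 0.535, 206, 5.33 and 156 CPM, with 83.8% and 79.6% of its UMIs in 5% of the ventilated cells. *Il1b*, already at 975 and 1230 CPM without ventilation, was at 2518 and 3616 CPM after it, and *Tnf* was at 106, 478, 202 and 497 CPM. *Ccl5* was highest in the young ventilated library (2.14, 291, 21.6 and 29.2 CPM), where 7.84% of cells had a UMI, while *Ccl6* was lower after ventilation (561, 145, 384 and 232 CPM). *Il1rn*, the antagonist of the IL-1 receptor, was at 8.03, 134, 15 and 195.1 CPM.

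Receptors for microbial and damage-derived ligands followed. Of the 20 listed, 14 were measured between the nonventilated libraries. The rest of those counted here reached the limit of 50 CPM only with the ventilated library. As a description, 8 of 15 were 2-fold higher in young and 8 of 16 in aged mice, none was lower, and the medians were 1.00 and 0.85. Higher genes made up 8.83% and 6.42% of all genes. The formyl peptide receptor gene *Fpr2* was at 15.5, 363, 118 and 504 CPM and was detected after thinning in 4.22%, 40.6%, 17.5% and 56.7% of cells (12%, 81.4%, 45.5% and 92.7% unthinned, with at most 1.18% of unthinned B cells). *Clec4e* (132, 918, 371 and 1235 CPM) and *Clec4d* (43.9, 387, 104 and 565 CPM), both C-type lectins that sense mycobacterial lipid and dead cells, and the lipopolysaccharide coreceptor *Cd14* (108, 413, 151 and 726 CPM) were higher too. Of the Fc receptor and phagocytosis genes, 4 of 16 were 2-fold higher and 1 lower in young mice, against 2 of 15 higher and none lower in aged mice. Over all genes 8.83% were higher and 9.72% lower in young mice, and 6.42% and 9.36% in aged mice. The activating receptor gene *Fcgr1* (28.4, 119, 17.5 and 68.0 CPM) was called higher in young mice and lay under the limit of 50 CPM in aged mice. In young mice it reached that limit only through the ventilated library, where it had to be higher, so that the young count is a description. The inhibitory *Fcgr2b* (108, 283, 81.2 and 304 CPM) was higher at both ages. *Fcgr4*, which is typical of these cells, was at 292, 204, 314 and 293 CPM. *Fcgr3* was 2-fold lower in young mice only (203, 73.1, 98.7 and 90.9 CPM), a difference between ages that was not tested.

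Single genes of coagulation and lipid handling lay on either side of 0. Each list had 1 lower gene at each age, near the share over all genes (9.72% in young and 9.36% in aged mice). Higher genes made up more of each list than over all genes (8.83% and 6.42%), but those counts are a description, as explained below. *F10*, coagulation factor X, was at 70.1, 531, 206 and 855 CPM, whereas *Thbd*, thrombomodulin, which turns thrombin into an anticoagulant, was at 89.9, 16.2, 85.5 and 21.0 CPM. Of 8 measured genes of the coagulation list, 4 were 2-fold higher and 1 lower in young mice, and of 7 in aged mice, 3 were higher and 1 lower. Of the 21 listed, 6 were measured between the nonventilated libraries. The others counted here reached the limit of 50 CPM only with the ventilated library, so that these counts are a description. *Nr1h3*, the oxysterol receptor LXRα, was at 6.42, 145, 32.7 and 166 CPM and the fatty acid binding protein gene *Fabp5* at 21.9, 244, 21.6 and 232 CPM, while the apolipoprotein gene *Apoe* was at 1478, 657, 1244 and 1043 CPM. Among lipid genes 6 of 12 were 2-fold higher and 1 lower in young mice, against 3 and 1 of 12 in aged mice. Of the 16 listed, 9 were measured between the nonventilated libraries, and *Nr1h3* and *Fabp5* reached the limit of 50 CPM only through the ventilated library, so that this count is a description.

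Some genes that mark nonclassical monocytes were lower after ventilation. Of the 10 markers outside the rule, 3 were 2-fold lower in young and 4 in aged mice, beside 9.72% and 9.36% of all genes. None was 2-fold higher, *Gngt2* was at 959, 1368, 1095 and 1208 CPM, and the median log2 ratios were -0.67 and -0.85. *Ace* (chromosome 11, 105967945 to 105989964, plus strand), the angiotensin-converting enzyme, was at 583, 100, 531 and 124 CPM, or 5.83-fold lower in young (5.02 to 6.81) and 4.27-fold lower in aged mice (3.83 to 4.77). It was detected after thinning in 69.9%, 19.8%, 59.6% and 26.1% of cells (91.0%, 43.6%, 90.9% and 52.9% unthinned). In the other barcodes *Ace* was at 240, 186, 233 and 241 CPM, and the part of background in these shares was not tested. *Spn*, the sialoglycoprotein CD43 by which these cells are often sorted, was at 379, 169, 442 and 207 CPM, *Eno3* at 211, 58.4, 188 and 53.7 CPM and *Ear2* at 332, 174, 354 and 167 CPM. Without the cells carrying markers of another type, the aged log2 ratio of *Spn* was -0.78, which no longer reached 2-fold. The transcription factors *Nr4a1* (1070, 604, 1144 and 685 CPM) and *Klf2* (1000, 388, 868 and 476 CPM) were also lower, but *Cebpb* (1897, 1972, 1949 and 1965 CPM) and *Spi1* (895, 956, 882 and 940 CPM) were nearly level. At each age 2 of 12 listed regulators were 2-fold lower and none higher, near the share over all genes (9.72% and 9.36% lower). Of the genes in the rule, *Treml4* was at 402, 719, 502 and 651 CPM, *Adgre4* at 1221, 1071, 1576 and 828 CPM, *Cd300e* at 254, 322, 294 and 242 CPM and *Csf1r* at 687, 819, 926 and 788 CPM.

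The genes with the lowest ratios after ventilation were of other kinds, with *Stxbp6* lowest in young mice and *Cnnm2*, a magnesium transport protein, lowest in aged mice, at 107, 28.9, 148 and 9.54 CPM. *Ccdc192*, at 127, 25.5, 101.2 and 9.85 CPM, followed in aged mice. Without the cells carrying markers of another type the aged log2 ratio was -3.16 for *Cnnm2* and -2.07 for *Ccdc192*. The ratios of *Nr4a2* (-3.38) and *Stxbp6* (-3.32) were then below that of *Cnnm2*, so that this ranking did not hold there. *Stxbp6*, which binds components of the vesicle fusion machinery, was at 385, 14.2, 142 and 16.2 CPM, or 27.1-fold lower in young (18.7 to 40.7) and 8.78-fold lower in aged mice (6.59 to 11.9). *Tppp3*, a tubulin-associated protein, was at 224, 9.81, 193 and 30.2 CPM. *Flt1*, the VEGF receptor 1 found on monocytes, was at 272, 37.8, 200 and 25.7 CPM, and the Parkinson's disease kinase *Lrrk2* was at 322, 35.3, 376 and 71.2 CPM. Among abundant genes with smaller ratios, *Xylt1*, a xylosyltransferase of proteoglycan synthesis chosen after its values were seen, was at 1952, 440, 2031 and 385 CPM, and its median count per 2000 UMIs was 3, 0, 4 and 0. It was detected in fewer B cells of ventilated lungs too, in 72.7%, 39.1%, 57.8% and 36.5% of thinned cells. *Pglyrp1*, an antibacterial secreted protein, was at 294, 32.9, 256 and 82.3 CPM.

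Some genes responding to glucocorticoid and the clock were lower. Of 9 measured, 4 were 2-fold lower and 1 higher in young mice (median log2 ratio -0.85), against 3 and 1 in aged mice (-0.69). Over all genes, 9.72% were lower and 8.83% higher in young mice, and 9.36% and 6.42% in aged mice. *Zbtb16* was at 418, 47.6, 289 and 112 CPM (aged log2 ratio -1.36) and *Per1* at 104, 40.7, 103 and 42.6 CPM. Without the cells carrying markers of another type, the aged log2 ratio of each was -0.75, which no longer reached 2-fold. *Tsc22d3* was at 312, 124, 236 and 123 CPM. The higher gene was the metallothionein *Mt1* (13.4, 166, 49.2 and 434 CPM). It reached the limit of 50 CPM only through the ventilated library, where it had to be higher. Of the immediate early genes, which tissue digestion can induce, 3 of 19 were higher and 4 lower in young ventilated cells. In aged mice 1 of 20 was higher and 3 were lower. Their median log2 ratios were -0.58 in young and -0.23 in aged mice, beside -0.09 and -0.14 for all genes. *Fos* was at 336, 150, 386 and 220 CPM, whereas *Ier3* was at 20.3, 204, 84.8 and 202 CPM. None of the 6 measured genes of the unfolded protein and integrated stress response reached 2-fold at either age, among them *Hspa5* (414, 808, 453 and 732 CPM) and *Atf4* (106, 124, 131 and 118 CPM). Of 13 glycolysis and hypoxia genes, 2 were higher and 2 lower in young mice and 1 higher and 2 lower in aged mice. These counts were near the shares over all genes (8.83% higher and 9.72% lower in young, 6.42% and 9.36% in aged mice). Among them, *Hif1a* was at 96.9, 272, 145 and 336 CPM and the mitophagy receptor *Bnip3l* at 225, 31.4, 213 and 49.9 CPM. Among chaperones none of 7 reached 2-fold in young mice, and 1 of 8 was higher and 2 were lower in aged mice. The aged counts stand beside 6.42% higher and 9.36% lower over all genes.

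Some interferon-stimulated genes were higher after ventilation. Of the 28 listed, 9 were measured between the nonventilated libraries, and others, such as *Isg15* and *Gbp2*, reached the limit of 50 CPM only through the ventilated library, so that the counts are a description. In ventilated lungs 7 of 13 measured genes were 2-fold higher and none lower in young mice (median log2 ratio 1.17), and 5 of 12 were higher and none lower in aged mice (0.61). Among all genes 8.83% were higher and 9.72% lower in young mice, and 6.42% and 9.36% in aged mice. *Isg15*, a ubiquitin-like modifier, was at 24.1, 397, 18.0 and 137 CPM, *Bst2*, which tethers budding virus, at 64.8, 220, 51.5 and 86.4 CPM, and *Oas3*, a sensor of double-stranded RNA, at 25.2, 84.4, 21.8 and 26.7 CPM. For these 3 genes the aged nonventilated library was lowest and the young ventilated library highest. *Isg15* was detected after thinning in 24.3% of young and 14.3% of aged ventilated nonclassical monocytes (52.0% and 40.2% unthinned), beside 17.4% and 2.35% of B cells (33.3% and 8.24% unthinned). These were 24 and 85 B cells, so the young share in particular rests on few cells, and it differed with age in the same direction. *Ifi204* (157, 403, 128 and 392 CPM) and *Gbp2* (41.2, 137, 30.4 and 92.2 CPM) were higher after ventilation at both ages.

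The interferon-stimulated response element, to which IRF proteins bind, was searched as TTCNNTTTC on either strand. It was in 15 of 21 promoters of the list (71.4%) against 8.57% of all 27025 promoters. *Zbp1*, lower in aged than in young ventilated cells, is not among these 15. Windows are given only for genes chosen for display that had a match. These are the windows of *Isg15*, *Bst2* and *Oas3*, also lower in aged than in young ventilated cells, and of *Cxcl10*, not 2-fold different between them. They lie at chr4:156200851-156200909, chr8:71537563-71537621, chr5:120777695-120777753 and chr5:92349069-92349127 (GRCm38.p6, minus strand), and capitals mark matches read on the opposite strand, which overlap each other in *Isg15*, *Bst2* and *Oas3*.
Isg15: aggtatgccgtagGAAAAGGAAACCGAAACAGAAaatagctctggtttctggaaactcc
Bst2: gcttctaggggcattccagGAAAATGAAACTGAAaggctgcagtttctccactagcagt
Oas3: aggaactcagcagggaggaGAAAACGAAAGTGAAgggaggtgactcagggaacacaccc
Cxcl10: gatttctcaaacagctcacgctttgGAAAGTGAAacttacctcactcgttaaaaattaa

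MHC class II genes, which present antigen to CD4+ T cells, had ratios on opposite sides of 0 in young and aged mice, but not once cells carrying markers of another type were left out. In young mice 4 of 5 measured genes were 2-fold lower after ventilation (median log2 ratio -1.48), and in aged mice none of 4 reached 2-fold and all 4 were above 0 (0.43). Lower genes made up 9.72% of all genes in young and 9.36% in aged mice. *H2-Aa* was at 528, 188, 381 and 416 CPM, *H2-Ab1* at 406, 171, 290 and 391 CPM and *H2-Eb1* at 286, 94.2, 204 and 275 CPM. The invariant chain gene *Cd74* was at 1799, 1337, 1160 and 1824 CPM. Few cells carried these transcripts: with each cell thinned to 2000 UMIs, at least 2 UMIs of *H2-Aa*, *H2-Ab1* and *H2-Eb1* together were found in 20.5%, 7.43%, 10.8% and 12.7% of nonclassical monocytes. In aged ventilated lung these 31 cells had a UMI of *Cx3cr1* in 3.23%, of *Cd300e* in 12.9%, of *Ccr2* in 32.3% and of *Saa3* in 54.8%, against 30.4%, 46.7%, 13.6% and 23.8% of the remaining nonclassical monocytes, and the part of other cell types in the class II levels was not tested. Without the cells carrying markers of another type, *H2-Eb1* was at 292, 142, 200 and 98.0 CPM, giving a log2 ratio of -1.04 for young and -1.02 for aged mice, and the ratios of *H2-Aa* (-1.26 and -0.80), *H2-Ab1* (-0.83 and -0.51) and *Cd74* (-0.21 and -0.07) were then below 0 at both ages too. MHC class I genes were nearly level, with *B2m* at 2092, 2019, 2246 and 2164 CPM, 1 of 14 genes 2-fold higher in young and 1 of 12 lower in aged mice. These 2 counts were near the shares over all genes (8.83% higher in young and 9.36% lower in aged mice).

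Without ventilation few genes separated aged from young nonclassical monocytes. Of 3595 genes, 40 (1.11%) were at least 2-fold higher and 22 (0.612%) lower in aged nonventilated cells, with a median log2 ratio of 0.03 over all genes. The age comparisons use the same libraries as the ventilation comparisons, so a high value in 1 library enters both. All 19 genes of the NF-kB list were higher in the aged library and 5 passed 2-fold, with a median log2 ratio of 0.58. *Olr1*, a receptor for oxidized lipoprotein, was 7.82-fold higher in aged cells (5.26 to 12.1), at 13.9, 35.3, 109 and 41.6 CPM. *Fpr2* was 7.62-fold higher (5.23 to 11.5) and *Cxcl2* 5.51-fold (4.08 to 7.62). Of the *Cxcl2* UMIs of aged nonventilated cells, 83.0% were in 5% of the cells, and its log2 ratio of 2.44 was 1.53 without the cells carrying markers of another type. *Ier3*, *Ccrl2* and *Ptger4* were 3.67-fold to 4.17-fold higher. The heat shock gene *Hspa1b*, which shares nearly all its sequence with *Hspa1a*, was at 19.3, 11.3, 85.2 and 31.5 CPM. The adhesion molecule gene *Pecam1* was at 238, 258, 613 and 333 CPM. Genes of classical monocytes were lower in aged cells, 5 of 7 measured markers being 2-fold lower. *Vcan* was at 91.5, 263, 24.9 and 437 CPM, *Fn1* at 266, 102, 79.9 and 162 CPM, *Ccr2* at 192, 104, 60.6 and 152 CPM and *Ly6c2* at 114, 223, 40.3 and 116 CPM. In young nonventilated cells *Vcan* had a UMI in 12% and *Ccr2* in 28.9% of cells, and the part of classical or transitional cells in this difference was not tested. With all 3 defining genes required, the log2 ratio between ages was 1.03 for *F13a1* and 0.057 for *Ly6c2*, so that these genes were no longer lower. All 9 measured interferon-stimulated genes were lower in aged cells, none by 2-fold (median log2 ratio -0.53).

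After ventilation the ages were closer still, with 24 of 3429 genes (0.7%) at least 2-fold higher and 12 (0.35%) lower in aged cells. The split was 10 higher and 23 lower when 1 defining gene sufficed and 45 higher and 6 lower when all 3 were required. Among genes with a mean of 50 CPM or more and a UMI in at least 10% of the young ventilated cells, which leaves out *Cnnm2* (mean under 50 CPM) and *Ccl5* (7.84% of cells, log2 ratio -3.30), the 8 with the lowest ratios were *Oas3* (3.16-fold lower, 2.42 to 4.15), *Isg15* (2.90-fold), *Zbp1* (2.88-fold), *Ly6i*, *Bst2*, *Ly6a*, *Ifi47* and *Irf8* (2.18-fold). Without the cells carrying markers of another type the log2 ratio was -0.87 for *Ifi47* and -0.51 for *Irf8*, which no longer reached 2-fold. Of these, *Isg15*, *Zbp1* and *Bst2* are on the interferon list. Of 15 measured genes of that list, 13 were below 0 and 3 passed 2-fold, with a median log2 ratio of -0.58 beside -0.01 for all genes. The proteasome and peptide-loading genes *Psmb8* (300, 372, 219 and 196 CPM), *Psmb9* (106, 103, 66.7 and 55.9 CPM) and *Tap1* (96.3, 64.7, 66.2 and 38.5 CPM) were also lower in aged ventilated cells, by less than 2-fold, and 13 of 14 MHC class I genes were below 0 (median -0.50). Higher in aged cells were *H2-Eb1* (2.92-fold, 2.49 to 3.43; log2 ratio -0.52 without the cells carrying markers of another type), *Mt1* (2.61-fold; log2 ratio 0.84 without those cells), *Slpi*, a protease inhibitor (45.5, 426, 38.3 and 1047 CPM), and *S100a8* and *S100a9*. The last 2 are themselves neutrophil markers, and 98.1% of the *S100a9* UMIs of aged ventilated cells were in 12 cells. Without the cells carrying markers of another type *S100a8* was at 5.22, 40.0, 6.48 and 10.4 CPM and *S100a9* at 2.61, 3.24, 4.49 and 5.77 CPM. In that set *Isg15* was still lower in aged than in young ventilated cells, at 20.0, 359, 23.4 and 96.9 CPM.

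Classical monocytes and interstitial macrophages of the same libraries are given beside nonclassical monocytes without a test. Ventilation left 746 of 3524 genes past 2-fold in young and 877 of 3517 in aged classical monocytes, and 688 of 3340 and 356 of 3354 in interstitial macrophages, in populations of 41 to 79 and 45 to 71 cells per library, against 666 of 3592 and 558 of 3538 in nonclassical monocytes. The smaller populations have fewer UMIs behind each ratio. *Fth1* was at 3407, 16669, 2948 and 13557 CPM in classical monocytes and at 6153, 18171, 8165 and 16701 CPM in interstitial macrophages, so the ventilated level was highest in nonclassical monocytes in both ages. *Slc7a11* was at 85.8, 208, 148 and 452 CPM and at 10.1, 545, 110 and 531 CPM in the same order. *Spic* was at 0, 101.1, 0 and 130 CPM in classical monocytes and at 25.4, 99.8, 13.6 and 174 CPM in interstitial macrophages, against 574 and 593 CPM in ventilated nonclassical monocytes. *Saa3* was highest in classical monocytes (2.23, 5264, 0 and 6945 CPM). *Ace* was at 35.6, 3.53, 26.6 and 1.21 CPM in classical monocytes, far below the nonclassical level in each library, and *Cx3cr1* was at 173, 9.40, 129 and 15.7 CPM there. The oxidative stress list had a median log2 ratio of 0.85 and 0.90 in young and aged classical monocytes and of 1.32 and 0.83 in interstitial macrophages, compared with 2.11 and 1.76 in nonclassical monocytes. MHC class II genes were lower after ventilation in classical monocytes at both ages (6 of 6 genes 2-fold lower, medians -3.46 and -1.49).

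**Figure D5:**
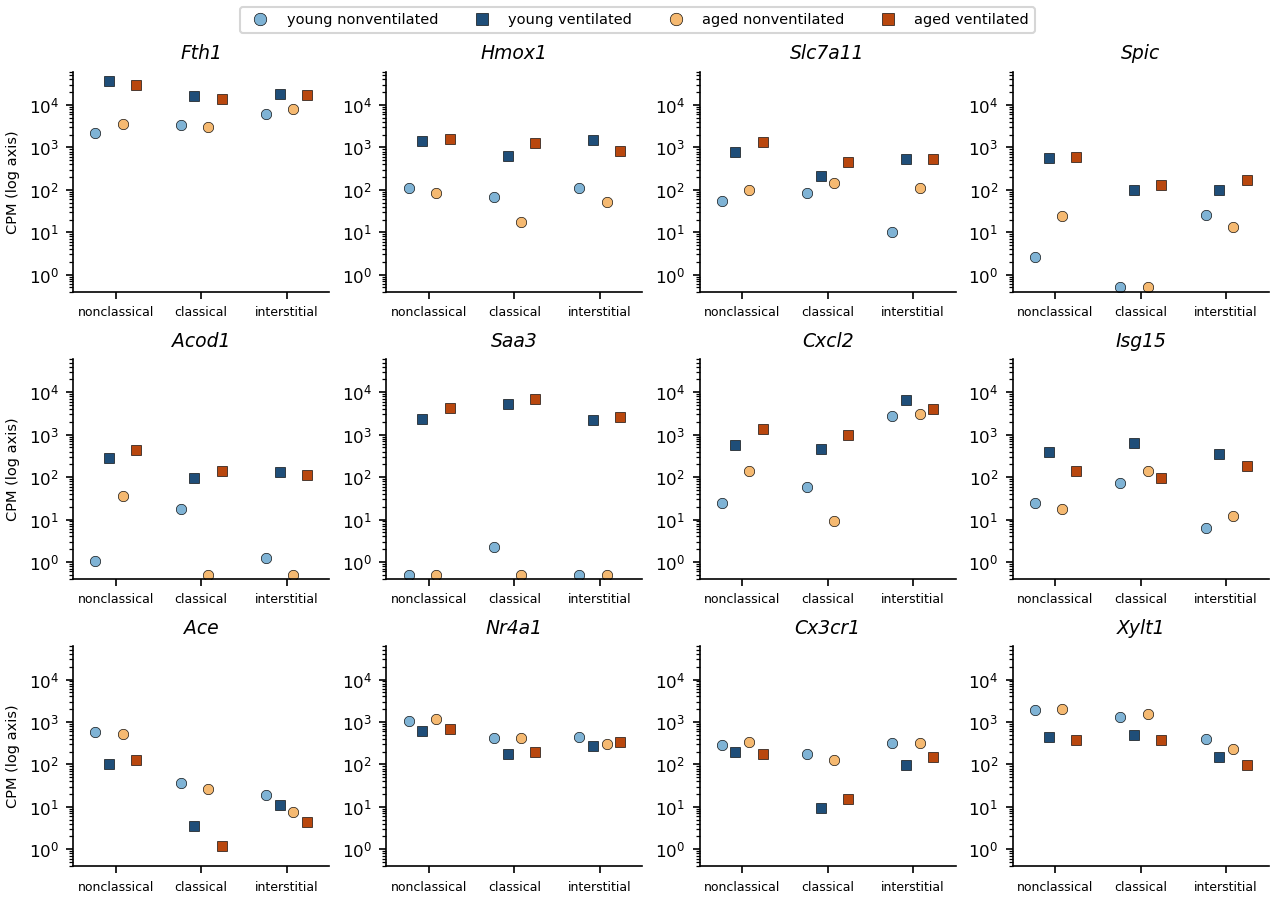
CPM of summed UMIs (log axis, values under 0.5 drawn at 0.5) of 12 genes in nonclassical monocytes, classical monocytes and interstitial macrophages, circles for nonventilated and squares for ventilated mice. *Spic* and *Slc7a11* squares are highest in nonclassical monocytes, *Saa3* squares in classical monocytes and *Cxcl2* points in interstitial macrophages.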

How the data were processed

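Counts were deposited as 1 matrix of UMI counts per gene and barcode for each of the 4 libraries. The authors prepared 3′ libraries from frozen cells and made the counts with Cell Ranger 7.0.0 on mm10 with default settings, which in that version also count reads in introns. Genes with near-identical copies (*Hspa1a* and *Hspa1b*, H2-Q, Ly6, Ifi200 and Bcl2a1 families) are uncertain.

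Members and gene lists were chosen with earlier results of these data known. Raw counts of the members were summed per library, scaled to CPM and compared as a log2 ratio with 1 UMI added to each sum. Intervals are exact conditional binomial for ratios and Clopper-Pearson for shares. Named genes are the 12 largest increases and 8 largest decreases per ventilation comparison and the 8 largest of each per age comparison among genes with at least 20 UMIs and a UMI in at least 10% of members where higher, with the interval excluding 1 and no gene of the rule, plus list and marker genes. Per-cell values were thinned to 2000 UMIs (seed 1), leaving out 0, 2, 3 and 1 shallower cells. Gene positions are from GENCODE (32158 of 32285 gene identifiers matched). Ratios and intervals were tested on simulated sums with counting error only, which cannot speak to spread between cells or mice. Python 3.11.15, numpy 2.4.6, scipy 1.17.1, pandas 2.3.3 and matplotlib 3.10.9 were used. Populations were rebuilt from markers and may differ from the study's clusters.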

Additional observations from a re-analysis of the deposited data

Results flagged for a closer look

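Among the named genes and the genes of the pathway lists, 6 had log2 ratios on opposite sides of 0 in nonclassical monocytes of young and aged mice after ventilation, with both counting intervals excluding no difference and both ratios at least 0.3 in size. Genes outside these limits could also differ in direction, such as *H2-Aa* (-1.48 and 0.13). With 1 library per group the difference between ages was not tested across mice. Log2 ratios of ventilated over nonventilated cells were -0.88 in young and 1.32 in aged mice for *Ccr2*, the receptor for CCL2, and -1.37 and 1.01 for *Fn1*, fibronectin. They were -0.43 and 0.65 for *Cd74*, -1.25 and 0.43 for *H2-Ab1* and -1.60 and 0.43 for *H2-Eb1*, all of antigen presentation, and -0.59 and 0.85 for the immediate early gene *Egr1*. In library order, 5% of cells held 62.8%, 85.2%, 86.4% and 62.2% of *Fn1* UMIs and 44.7%, 55.2%, 69.5% and 47.2% of *Ccr2* UMIs. For *H2-Eb1* they held 59.3%, 95.3%, 89.7% and 82.0%. The counting intervals do not cover this spread between cells. *Ccr2* and *Fn1* are classical monocyte markers, and the summed level of those markers was 1172 CPM without and 3313 CPM with ventilation in young cells and 682 and 3470 CPM in aged cells. Much of the ventilated sums was *Hp*, at 2129 CPM in young and 2067 CPM in aged cells. It had a UMI in 90.2% and 93.9% of these cells. The part of classical monocytes in the difference was not tested. Without cells that carried 2 or more markers of another type, *Ccr2* kept its directions (-0.66 and 1.33), as did *Fn1* (-1.49 and 0.56). That filter used no classical monocyte markers, so it cannot show the part of classical cells in either gene. *H2-Ab1* (-0.83 and -0.51), *H2-Eb1* (-1.04 and -1.02) and *Cd74* (-0.21 and -0.07) were below 0 at both ages after that filter.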

How the results depend on the processing

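Each group was 1 library, so no replicate was left out and mouse-to-mouse spread is unknown. No paired analysis was made, since each group has 1 library and no test was run.

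Shares in young lung without and with ventilation and then in aged lung without and with it were 7.24%, 7.60%, 15.5% and 11.9% with at most 5% mitochondrial UMIs, 3.74%, 4.39%, 8.86% and 6.35% with all 3 defining genes, 7.44%, 9.32%, 14.4% and 13.5% with at least 1, and 3.67%, 3.01%, 7.17% and 3.37% without cells carrying markers of another type. With at most 5000 genes the aged shares were 14.2% and 11.0%, and with at least 2000 UMIs per cell the young ventilated share was 7.01%. The cause was not tested.

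Genes past 2-fold numbered 1079, 918, 130 and 89 for young ventilation, aged ventilation, age without and age with ventilation at a mean of at least 20 CPM, and 5251, 5525, 3540 and 3390 over all genes with a UMI, since sparse genes then enter. Thinning to 2000 UMIs gave 115 and 71 for the age comparisons, with fewer UMIs behind each ratio. The other 46 of 56 counts were within 1.5 times the main one. For age with ventilation the split of 24 higher and 12 lower was 45 and 6 with all 3 defining genes and 10 and 23 with at least 1.

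Of 864 values for named genes, 858 kept their direction, as did 805 of 860 list medians, while 160 and 242 of them moved beyond their limit, and the largest shifts on the log2 scale were 5.98 and 1.4. The ratio of the ventilated to the nonventilated share in young lung turned from 1.09 to 0.819 without cells carrying markers of another type. With all 3 defining genes the log2 ratio of *Spp1* was -0.90 in aged ventilation, and those of *Wfdc17*, *F13a1* and *Ly6c2* between nonventilated ages were 0.21, 1.03 and 0.057. Without cells carrying markers of another type, aged over young ventilated was -0.52 for *H2-Eb1*, -0.23 for the MHC class II median and -1.83 for *S100a8*, which is itself among the markers that removed cells.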

Other observations

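Ribosomal protein genes, which make up the translation machinery, were lower as a group in the young ventilated and the aged nonventilated nonclassical monocytes than in the young nonventilated ones. The list held 92 genes whose symbols begin with Rpl or Rps, including a few that are not ribosomal proteins, such as the kinase gene *Rps6ka1*. After ventilation 76 of 83 measured genes were below 0 in young mice (median log2 ratio -0.46, against -0.09 for all genes) and 59 of 83 in aged mice (-0.09, against -0.14 for all genes). Between nonventilated ages 78 of 82 were lower in aged cells (median -0.34), and between ventilated ages 39 of 81 were (0.01). The young nonventilated library was therefore the one that stood apart. After ventilation 3 genes of this list were 2-fold lower in young mice and 2 in aged mice, beside 9.72% and 9.36% of all genes.

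Of the genes for crawling and adhesion, 1 of 18 was 2-fold higher and 3 were lower in young ventilated cells, and 1 and 3 of 17 in aged ones, near the shares over all genes (8.83% and 9.72% in young, 6.42% and 9.36% in aged mice). The sphingosine phosphate receptor gene *S1pr5*, which nonclassical monocytes need to leave the bone marrow, was at 102, 39.7, 91.6 and 32.4 CPM, and the tetraspanin gene *Tspan13* at 173, 58.8, 127 and 61.3 CPM. *Selplg*, the P-selectin ligand, was at 207, 121, 175 and 103 CPM. *Cd44* (1249, 1113, 1437 and 1399 CPM) and *Itgam* (380, 413, 390 and 492 CPM) stayed within 1.3-fold after ventilation. The survival genes *Bcl2* (331, 311, 338 and 303 CPM) and *Mcl1* (648, 652, 535 and 659 CPM) stayed within that range too.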
